A study of Mus musculus with 6 samples.

Results

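The genes described here encode the activator protein 1 (AP-1) transcription factors of mouse, Fos, Fosb, Fosl1, Fosl2, Jun, Junb and Jund, and their relative Atf3. They were taken by symbol from the gene column of a table of 23235 genes, and all 8 were found there. Of these, 7 had a test in the authors' deposited table and 1, Fosl1, had too little signal for one. RNA came from the hippocampus of 6 adult male mice aged 60 to 70 days, 3 per genotype. Wildtype mice were Rbfox1 fl/fl; +/+ and Nes-cKO mice were Rbfox1 fl/fl; Nes/+, so both carried the floxed alleles and only the latter carried Cre. Nestin-driven Cre acts in neural progenitors and so reaches their neuronal and glial descendants. Since the wildtype mice carried no Cre, loss of Rbfox1 and presence of Cre cannot be told apart.

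AP-1 factors are dimers of basic leucine zipper (bZIP) proteins. Fos proteins bind DNA only when paired with a partner such as a Jun protein, while Jun proteins also pair with each other. In the hippocampus, Fos, Fosb and Junb are classical immediate early genes, transcribed within minutes of strong synaptic activity, whereas Jund is a more constant member. Fosb also gives rise, by splicing, to a truncated and long-lived protein, deltaFosB, which builds up when neurons are stimulated repeatedly. Atf3 is hardly expressed in resting neurons and is induced by injury, stress and seizures.

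Transcript levels are in FPKM, the authors' estimate scaled to transcript length and sequencing depth, so that levels of different genes can be set beside each other. The table held 1 FPKM value for each gene and genotype. Spread between mice was therefore not analysed here, no value below has a replicate error, and neighbouring levels in an order cannot be separated by their spread. Depth per library is unknown. In bulk tissue, a change in the number of cells of a type and a change in RNA per cell cannot be told apart. A gene is said to have risen or fallen where its q-value in the authors' deposited table was below 0.05, and log2 ratios are of Nes-cKO over wildtype with no pseudocount.

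Promoter windows from RefSeq (GRCm38.p6), which reach from 250 bases before the annotated transcript start to 50 bases after it, were found for 7 of the 8 genes. The 4 windows printed below, of Fosb, Atf3, Fos and Junb, were those with a TGACG match on either strand. TGACG is the core of the cAMP response element bound by CREB and ATF proteins. Capitals mark this core and the TATA box letters TATAAA. The windows are, in order, chr7:19309996-19310295, minus strand, chr1:191183284-191183583, minus strand, chr12:85473640-85473939, plus strand and chr8:84978699-84978998, minus strand, each written along its gene.
Fosb promoter: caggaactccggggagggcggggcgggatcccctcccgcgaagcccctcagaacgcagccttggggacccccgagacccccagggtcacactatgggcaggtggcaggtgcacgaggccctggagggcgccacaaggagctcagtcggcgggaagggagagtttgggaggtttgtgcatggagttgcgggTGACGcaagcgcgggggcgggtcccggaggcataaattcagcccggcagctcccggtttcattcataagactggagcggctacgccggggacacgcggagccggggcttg
Atf3 promoter: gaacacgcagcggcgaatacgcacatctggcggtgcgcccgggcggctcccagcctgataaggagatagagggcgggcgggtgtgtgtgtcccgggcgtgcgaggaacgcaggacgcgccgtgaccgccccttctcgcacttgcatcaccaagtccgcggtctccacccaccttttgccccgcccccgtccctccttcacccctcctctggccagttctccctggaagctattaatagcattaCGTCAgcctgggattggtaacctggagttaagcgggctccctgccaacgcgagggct
Fos promoter: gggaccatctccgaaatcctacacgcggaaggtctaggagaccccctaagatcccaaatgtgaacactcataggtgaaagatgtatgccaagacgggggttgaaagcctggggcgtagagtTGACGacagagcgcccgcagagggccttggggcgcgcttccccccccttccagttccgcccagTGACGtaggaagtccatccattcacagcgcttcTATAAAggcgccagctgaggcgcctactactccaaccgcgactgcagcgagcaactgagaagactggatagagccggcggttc
Junb promoter: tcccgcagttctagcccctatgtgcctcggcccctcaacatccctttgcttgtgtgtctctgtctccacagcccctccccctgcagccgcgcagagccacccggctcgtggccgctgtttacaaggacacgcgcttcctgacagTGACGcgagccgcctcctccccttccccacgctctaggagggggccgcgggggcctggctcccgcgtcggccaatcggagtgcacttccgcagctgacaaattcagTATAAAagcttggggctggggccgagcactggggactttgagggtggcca

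In these windows, TGACG lay 60 to 56 bases before the start of Fosb and, on the opposite strand, 7 to 3 bases before that of Atf3. Fos held 2 matches, 129 to 125 and 66 to 62 bases before its start, the latter upstream of TATAAA at -33 to -28. In Junb the core lay 106 to 102 bases before the annotated start and TATAAA at 1 to 6. The windows of Fosl2, Jun and Jund held none of the motifs searched. These letters are common, with TGACG in a window of 33.9% and TATAAA in a window of 8.97% of the 10510 tested genes found in the promoter table, and in 20.8% and 13.6% of all 32851 windows. None of the 7 windows held the AP-1 site TGACTCA (5.20% of all windows), the full cAMP response element TGACGTCA (1.79%), which contains TGACG, the CArG box of serum response factor (1.63%) or the ETS letters CCGGAAGT (3.89%). Both strands were read in every case, and TGACG was added to the search after the sequences had been seen. A match, or the lack of one, describes the letters of these windows only. Sequence more than 250 bases before a start, that of Fos included, was not searched.

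**Figure D1:**
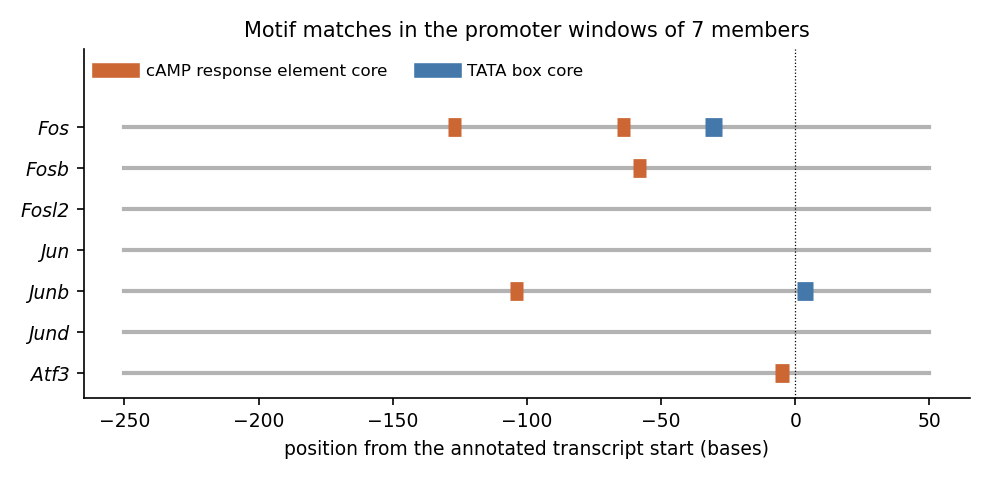
Positions of motif matches in the promoter windows of 7 members, in bases from the annotated transcript start (dotted line), with a grey line for each window. Matches to the cAMP response element core (orange) were in Fos, Fosb, Junb and Atf3, and matches to the TATA letters (blue) in Fos and Junb.

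Of the 7 tested members, 5 rose in Nes-cKO hippocampus and none fell. Fosb, Fos, Fosl2, Jund and Atf3 rose, while Jun and Junb did not pass the threshold. Across all 14964 tested genes, 4.62% were called higher and 2.29% lower. The members' log2 ratios ran from 0.22 to 2.99 with a median of 0.84, against a median of 0.03 over all tested genes. The 5 members that rose all stood at the lowest p-value in the authors' deposited table, 5e-05 (q = 0.00152), which 491 genes shared, so that table does not rank them by p. The deleted gene itself, Rbfox1, went from 67.5 to 23.0 FPKM, 34.0% of wildtype.

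**Figure D2:**
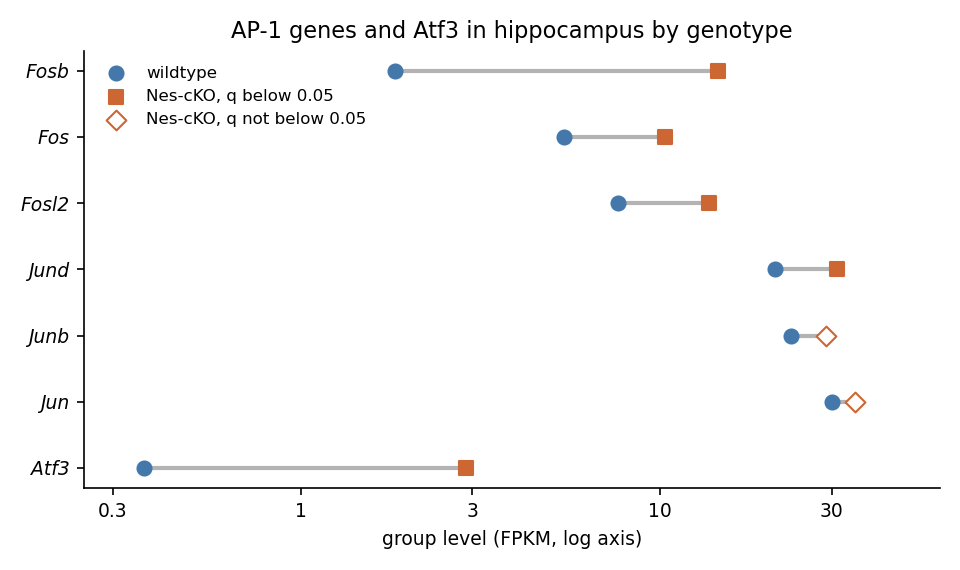
Group level of the 7 tested members in wildtype (blue circles) and Nes-cKO hippocampus (orange; filled squares where q in the authors' deposited table was below 0.05, open diamonds where it was not), in FPKM on a log axis. Fosb and Atf3 moved furthest, from 1.83 to 14.5 and from 0.366 to 2.88 FPKM, and Jun and Junb moved least.

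Among the Fos genes, Fosb had the highest ratio. Fosb (mm9 chromosome 7, 19888045 to 19895394) rose from 1.83 to 14.5 FPKM, a log2 ratio of 2.99. Its level lay above 24.2% of tested genes in wildtype and above 69.99% in Nes-cKO. Ordered by log2 ratio, it ranked 17 of all tested genes. Among the 595 genes called higher that reached 1 FPKM or more in either group, it ranked 2. As the table gives 1 value per gene, full-length Fosb and the deltaFosB transcript were not separated.

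Fos (mm9 chromosome 12, 86814851 to 86818219), the founding member and a widely used marker of recently active neurons, rose 1.91-fold, from 5.41 to 10.3 FPKM. Fosl2 (mm9 chromosome 5, 32438845 to 32460212), which encodes the Fos-related antigen Fra-2, rose 1.79-fold, from 7.65 to 13.7 FPKM. Their log2 ratios were 0.93 and 0.84. In wildtype Fosb stood at 0.338 times the level of Fos, and in Nes-cKO at 1.40 times. Fosl1 (mm9 chromosome 19, 5447698 to 5457563), which encodes Fra-1, was listed at 0 in wildtype and at 0.0290 FPKM in the Nes-cKO group, and no ratio was formed. Its locus overlaps that of Ccdc85b in the table.

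Among the Jun genes only Jund passed. Jund (mm9 chromosome 8, 73221638 to 73224515) rose 1.49-fold, from 20.9 to 31.1 FPKM, a log2 ratio of 0.57. Jun (mm9 chromosome 4, 94715727 to 94718913), the substrate after which the c-Jun N-terminal kinases are named, went from 30.04 to 34.93 FPKM without passing, with p = 0.07145 and q = 0.420 in the authors' deposited table. Junb (mm9 chromosome 8, 87500808 to 87502647), an immediate early gene whose product transactivates less strongly than Jun at many AP-1 sites, went from 23.2 to 28.9 FPKM, again without passing, with p = 0.02195 and q = 0.196 in the authors' deposited table. The log2 ratios of these genes were 0.22 and 0.32, in the same direction as the others. Whether Jund changed more than Jun or Junb was not tested, since that needs values per mouse.

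Atf3 (mm9 chromosome 1, 192994176 to 193007212), a bZIP protein that pairs with Jun proteins and can repress or activate, rose from 0.366 to 2.88 FPKM. Its log2 ratio of 2.97 ranked 18 of all tested genes, next to Fosb at 17. In wildtype its level lay above 5.71% of tested genes, and in Nes-cKO above 31.3%. It was the lowest of the 7 tested members in both genotypes. As its wildtype level was near the bottom of the scale, its ratio depended most on the scale used: with a pseudocount of 1 FPKM the log2 ratio was 1.51, against 2.45 for Fosb.

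**Figure D3:**
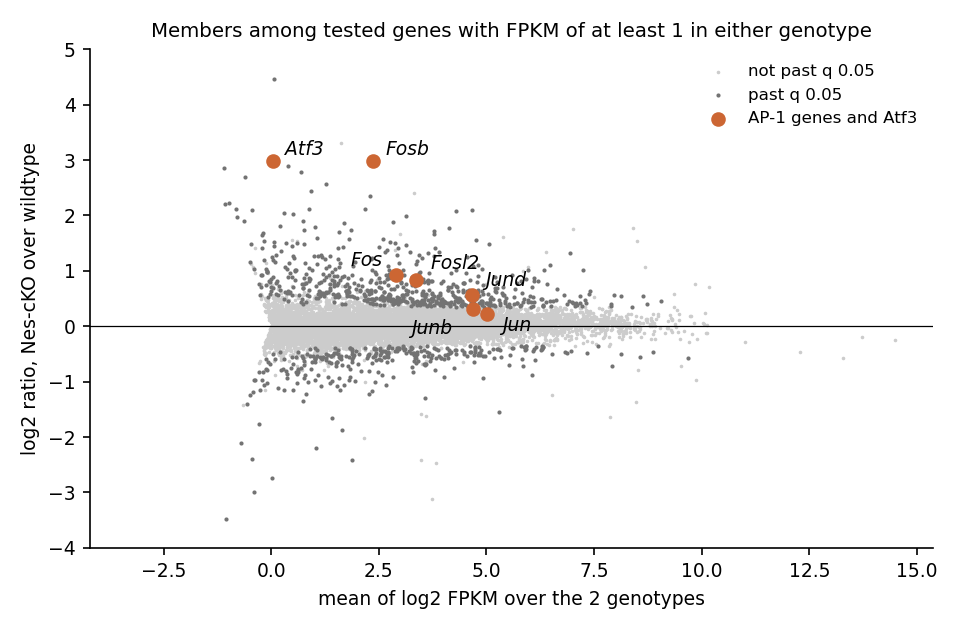
Log2 ratio of Nes-cKO over wildtype against the mean log2 FPKM of the genotypes, for 12667 tested genes that reached 1 FPKM or more in either group (light grey, not past q 0.05; dark grey, past it) and the 7 tested members (orange). Another 3 genes lay beyond the vertical axis, which runs from -4 to 5; Fosb and Atf3 lay near 3, and Jun and Junb lay within the light grey band.

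The order of the members differed between genotypes. In wildtype it ran Jun, Junb, Jund, Fosl2, Fos, Fosb and Atf3, an 82.0-fold range. In Nes-cKO it ran Jun, Jund, Junb, Fosb, Fosl2, Fos and Atf3, a 12.1-fold range. Fosb thus moved from below Fosl2 and Fos to above them, although in Nes-cKO its level was only 1.06 times that of Fosl2. Jund and Junb also changed places, at 1.11-fold and 1.07-fold apart.

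Summed over each subfamily, the levels went from 14.9 to 38.5 FPKM for the Fos genes, 2.59 times as much. For the Jun genes the sums were 74.2 and 95.0 FPKM, 1.28 times as much. The Jun sum was therefore 4.98 times the Fos sum in wildtype and 2.47 times in Nes-cKO. Fosb made up 12.3% of the Fos sum in wildtype and 37.6% in Nes-cKO, and accounted for 53.6% of the increase. Fosl2 went from 51.4% to 35.5% of that sum and Fos from 36.4% to 26.8%, although the levels of both rose. Without Fosb, the remaining Fos genes summed to 13.1 and 24.0 FPKM, 1.84 times as much. Within the Jun sum the shares were, for wildtype and Nes-cKO, Jun at 40.5% and 36.8%, Junb at 31.3% and 30.5% and Jund at 28.2% and 32.8%. These sums are of RNA, say nothing of protein or of which dimers formed, and were not tested.

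**Figure D4:**
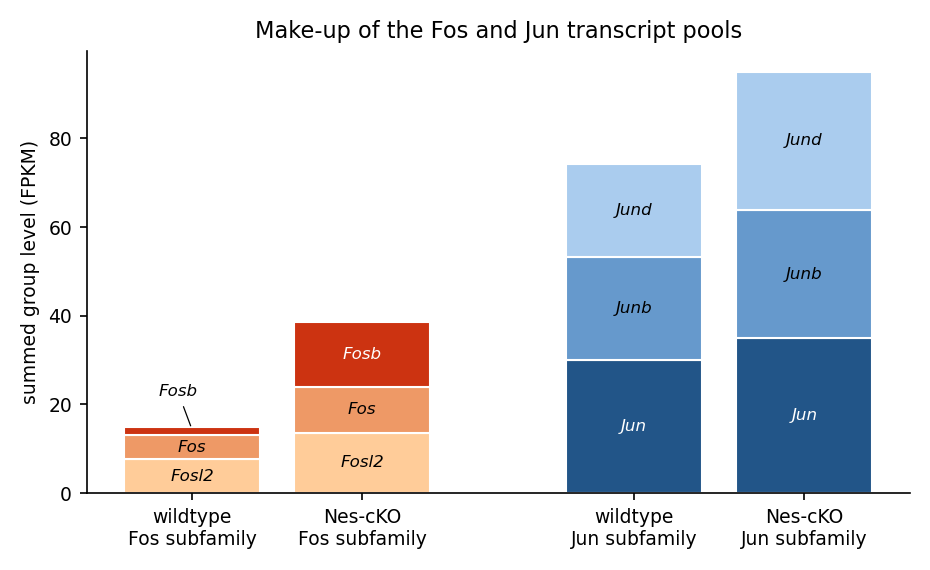
Summed FPKM of the Fos genes (orange and red shades) and Jun genes (blue shades) in wildtype and Nes-cKO hippocampus, split by gene. The Fos sum went from 14.9 to 38.5 FPKM, with the Fosb share going from 12.3% to 37.6%, and the Jun sum went from 74.2 to 95.0 FPKM.

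No alternative exon of an AP-1 gene was listed. The authors' deposited splicing tables held 320 events whose inclusion ratio differed by more than 10 percentage points between genotypes, and 0 of them were in the 8 members or in the 43 bZIP relatives described next. Of all tested genes, 1.85% had a listed event under their symbol, so a count of 0 in these few genes is near the background. Smaller differences were not listed in these tables.

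The wider bZIP family, whose members can pair with AP-1 proteins or share their DNA sites, changed in part. Of 43 relatives, 35 were measured, here meaning tested and at 1 FPKM or more in either group, and of these 8 rose, 2 fell and 25 did not pass, with a median log2 ratio of 0.03. Among all 12685 genes so measured, 4.69% were called higher and 2.41% lower, and the median was also 0.03. Batf3, a partner of Jun proteins best known from dendritic cells, rose from 0.332 to 1.24 FPKM. It reached 1 FPKM only in Nes-cKO, so it was counted through the genotype where it is high. Jdp2, the Jun dimerization protein, stood at 15.6 and 15.7 FPKM (q = 0.997 in the authors' deposited table). Of 15 ATF and CREB relatives 4 rose. Atf4, the effector of the integrated stress response, rose from 52.5 to 73.2 FPKM and Xbp1, a regulator of the unfolded protein response, from 28.96 to 38.70 FPKM. Creb3l1 and Creb3l2, which encode membrane-bound factors released by proteolysis, rose from 1.38 to 2.45 and from 1.75 to 2.70 FPKM. Of 9 C/EBP and PAR relatives, Cebpb and Nfil3 rose 1.83-fold and 1.505-fold, while Hlf and Tef, clock-controlled activators, fell to 58.2% and 66.4% of wildtype. Bach1, a haem-regulated repressor, was the member that rose among 9 MAF, NRF and BACH relatives, from 1.88 to 2.85 FPKM.

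Regulators known to switch AP-1 genes on or to act on their proteins were called higher in 0 of 17, 1 of 30 and 2 of 17 cases on 3 lists, beside 4.69% of all measured genes, and counts this small say nothing particular about these lists. None of 17 measured transcriptional activators of AP-1 genes passed in the authors' Cuffdiff test, while 3 of them, Srf, Mef2d and Stat3, had an unadjusted p below 0.05. Among them Srf, which binds the Fos promoter, stood at 11.6 and 14.4 FPKM (q = 0.139 in the authors' deposited table), Creb1 at 5.12 and 5.51 FPKM and the CREB coactivator gene Crtc1 at 38.8 and 36.1 FPKM. The authors' deposited table gave q = 0.0589 for Mef2d, an activity-regulated factor at 30.3 and 38.5 FPKM. The list median was 0.11. Of 30 kinases and scaffolds of the MAP kinase pathways, Mapk12, a stress-activated kinase gene, was the member that rose, from 1.80 to 4.78 FPKM, at a list median of 0.04. The c-Jun N-terminal kinase genes Mapk8, Mapk9 and Mapk10 stood at 14.6 and 16.4, at 33.4 and 31.4, and at 47.8 and 40.9 FPKM. Of 17 cofactors and turnover factors, 2 rose. Trib2, an adaptor for protein degradation, rose 3.31-fold to 25.2 FPKM, and Fbxw7, a ubiquitin ligase subunit that marks Jun for degradation, rose 1.29-fold to 50.4 FPKM. Transcript levels do not report kinase activity or phosphorylation.

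Genes described elsewhere as AP-1 targets rose in part. Of 35 measured genes, 12 rose, 1 fell and 22 did not pass, with a median log2 ratio of 0.09. Among all measured genes, 4.69% were called higher and 2.41% lower, with a median of 0.03. The list was chosen with earlier results of these data known, and without genes on several lists 7 rose, out of fewer measured genes. Inhba and Gal, given next, and Cd44 reached 1 FPKM only in Nes-cKO, so they were counted through the genotype where they are high. Whether these genes follow AP-1 was not tested. Inhba, an activin subunit gene, rose from 0.989 to 5.87 FPKM, the galanin gene Gal from 0.815 to 4.40 FPKM, and Nptx2, a synaptic pentraxin gene, from 9.48 to 40.1 FPKM. Pdyn, which encodes the dynorphin precursor, was the gene that fell (4.70 and 1.49 FPKM). Scg2, a granin gene that Fos controls in hippocampal pyramidal neurons, rose 1.59-fold, from 78.3 to 125 FPKM. Of the genes also described as targets of deltaFosB, Pdyn was called as given above, while others did not pass: Cdk5 stood at 38.1 and 39.4, Gria2 at 126 and 111 and Camk2a at 786 and 668 FPKM. Cd44, Scg2, Cdk5, Gria2 and Camk2a were picked with their values in view, and many genes of this list are also induced by activity through other factors.

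The promoter window of Scg2, picked with its values in view, held a full cAMP response element 68 to 61 bases before its start. This element, TGACGTCA, is not the AP-1 site, and a part of it in the level of Scg2 was not tested. Among tested genes it was in a window of 2 of 25 listed targets, against 3.47% of all 10510 found in the promoter table. It is printed here in capitals (GRCm38.p6, chr1:79440076-79440105, minus strand, written along the gene).
Scg2 site: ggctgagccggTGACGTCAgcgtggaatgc
The AP-1 site TGACTCA was in a window of 7 of the 30 listed target genes found in the promoter table. Among tested genes alone it was in 3 of 25 listed targets, against 4.57% of all 10510 tested genes found there. None of these 7, which were Ezr, Mt2, Plaur, Il6, Mmp3, Mmp10 and Mmp13, was called in either direction. Il6 and the metalloproteinase genes Mmp3, Mmp10 and Mmp13 had too little signal for a test. Mt2 stood at 176 and 146 FPKM and Ezr at 16.9 and 15.3 FPKM.

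Other immediate early genes were also higher in part. Of 42 measured, 18 rose and 1 fell, at a median log2 ratio of 0.21. Among all measured genes, 4.69% were called higher and 2.41% lower, at a median of 0.03. Egr2 and Pim1, among those that rose, reached 1 FPKM only in Nes-cKO. Egr3, a zinc finger factor gene, rose from 19.9 to 55.8 FPKM, and Ptgs2, the inducible cyclooxygenase gene, from 5.29 to 14.7 FPKM. Ier5 rose 2.53-fold and Rgs2, a regulator of G protein signalling, 2.49-fold. Other genes that synaptic activity induces did not pass, among them Arc at 42.9 and 34.2 FPKM, Npas4 at 3.73 and 2.98 FPKM and Egr1 at 33.5 and 35.3 FPKM, with q between 0.0825 and 0.961 in the authors' deposited table. Egr2, Pim1, Arc, Npas4 and Egr1 were picked with their values in view.

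Atf3 is a widely used marker of axotomised sensory neurons, where it rises with a set of regeneration genes. Of 28 measured genes of that set, Atf3 included, 12 rose, 1 fell and 15 did not pass, with a median log2 ratio of 0.34. Among all measured genes, 4.69% were called higher and 2.41% lower, with a median of 0.03. The list was chosen with earlier results of these data known, and without members and genes on several lists 5 rose, out of fewer measured genes. Ecel1, a protease gene induced by nerve injury, rose from 0.614 to 4.24 FPKM, a log2 ratio of 2.79, or 1.70 with a pseudocount of 1 FPKM. Inhba and Gal, named above, are also on this list. Atf3, Ecel1, Inhba and Gal reached 1 FPKM only in Nes-cKO, so they were counted through the genotype where they are high. Sox11, a transcription factor gene of immature and regenerating neurons, rose from 1.93 to 4.48 FPKM, while Gap43, the growth cone protein gene, stood at 89.3 and 110 FPKM (q = 0.128 in the authors' deposited table). The injury gene Sprr1a had too little signal for a test. Sox11, Gap43 and Sprr1a were picked with their values in view. Atf3 can also lie downstream of Atf4 in the integrated stress response. Of 29 measured genes of that response 4 rose (Cebpb, Atf4, Xbp1 and Aldh1l2), none fell and 25 did not pass, with a median of 0.06. Among all measured genes 4.69% were called higher, and without genes on several lists 1 stress gene rose, out of fewer measured genes. A part of Atf4 in the level of Atf3 was not tested. Ddit3, the stress factor CHOP, stood at 16.7 and 17.0 FPKM (q = 0.997 in the authors' deposited table).

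**Figure D5:**
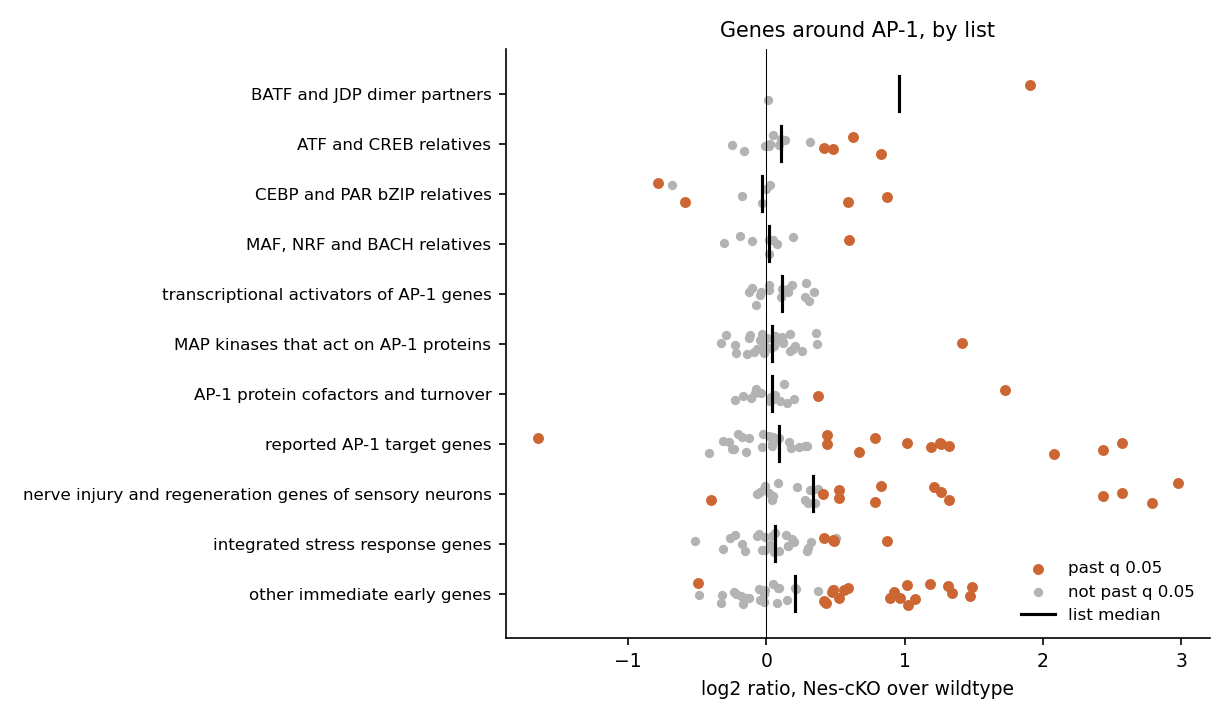
Log2 ratio of Nes-cKO over wildtype for the measured genes of 11 lists around AP-1, with 1 point per gene (orange, past q 0.05; grey, not past it) and a black bar at each list median. Called higher were 0 of 17 activators, 1 of 30 MAP kinase genes (Mapk12, 1.41) and 2 of 17 turnover factors (Trib2, 1.73, and Fbxw7, 0.37). Of immediate early, injury and reported target genes, 18 of 42, 12 of 28 and 12 of 35 were called higher, and 1 lower on each list. Among all measured genes 4.69% were called higher and 2.41% lower, and genes can be on several lists.

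By group level, the genes most like Fos, Fosb and Atf3 were named as the 3 nearest of 14947 tested genes in the plane of log2 FPKM in wildtype and in Nes-cKO, a likeness over 2 values only. Nearest to Fosb were Ly6g6e (2.16 and 11.1 FPKM), Mfap4 (2.19 and 9.44 FPKM) and Serinc2 (3.72 and 13.6 FPKM), at distances from 0.46 to 1.03 in log2. Nearest to Atf3 were Bmp3 (0.482 and 3.59 FPKM), Otos (0.603 and 2.49 FPKM) and Fat2 (0.611 and 2.14 FPKM), at distances from 0.51 to 0.85. Fos had closer neighbours, Slc5a5 (5.11 and 9.95 FPKM), Serpinf1 (5.78 and 10.8 FPKM) and Bhlhe41 (5.89 and 9.74 FPKM), all within 0.15. Since likeness was measured on the levels in both genotypes, the direction of these genes follows from their choice.

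Markers of other cells and regions differed in the same libraries, and their part in the AP-1 values was not tested. The counts below stand beside 4.69% called higher and 2.41% called lower among all measured genes. The hippocampal markers were present, with 13 of 13 measured at a summed 1490 and 1510 FPKM. Of these Neurod2, Grik4 and Slc17a7 rose, 1.76-fold, 1.39-fold and 1.31-fold, and Fibcd1 fell to 72.7% of wildtype. The largest parts of the sums were Camk2a, at 786 and 668 FPKM without passing, and Slc17a7, at 373 and 490 FPKM. These moved in opposite directions, so near-equal sums do not show that each marker was stable. Camk2a was picked with its values in view. Of 13 measured cerebellar markers 10 rose, among them Fat2, Gabra6, Car8 and Cbln3, and the summed level of all 18 listed went from 73.9 to 132 FPKM. Fat2, En2 and Ppp1r17 reached 1 FPKM only in Nes-cKO, so they were counted through the genotype where they are high. En2 and Ppp1r17 were picked with their values in view. Calb2, picked with its values in view, was the largest part of the sum, at 28.9 and 41.7 FPKM. Of 12 oligodendrocyte markers 10 fell, led by Mal, Mobp, Mbp and Cldn11 at between 60.9% and 68.3% of wildtype, and the sum went from 1741 to 1192 FPKM. Microglia had 0 of 15 markers past the threshold of the authors' Cuffdiff test, also 0 at an unadjusted p below 0.05. Their sums were 304 and 295 FPKM, with Ctss at 42.8 and 36.2 FPKM. Marker levels do not give the levels of AP-1 genes in any of these cells. Of 15 endothelial and mural markers Kdr rose, at sums of 129 and 130 FPKM. Among 12 astrocyte markers Gfap and Aqp4 rose, Glul fell and the sums were 1495 and 1386 FPKM. Of 13 neocortical markers Rprm and Ctgf were among 3 that rose, and 6330527O06Rik and Rasgrf2 fell. Lhx9, Prkcd and Ntng1 fell among 10 thalamic and habenular markers, Ttr and Enpp2 among 4 of choroid plexus, and Drd1a rose among 7 of striatum. No marker was listed at 0 in both genotypes.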

How the data were processed

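Strand-specific libraries of polyadenylated hippocampal RNA from 3 wildtype and 3 Nes-cKO mice were sequenced, per the labels' protocols, with 50 bp read at each end. Cuffdiff, Cufflinks, CASAVA and mouse build mm9 are named, without versions, in the submitters' processing notes. The aligner is not given in the sources used here. Per the file headers, the gene table holds FPKM per gene and genotype with the p-values and q-values of the test that the authors ran and deposited. A Benjamini-Hochberg adjustment of the p-values of all 14964 tested genes gave these q-values within 5.21e-07. The splicing tables deposited by the authors hold inclusion ratios as a fraction from 0 to 1, per the file headers.

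Values per mouse were provided for in the design. Since the table held group values, no test of expression was run here, and calls rest on the authors' q-value below 0.05. Starts in the table count from 0 and were raised by 1. The 8 members and all lists were chosen with earlier results of these data known. Lists were described by counts and medians over tested genes that reached 1 FPKM or more in either group. Genes named were the members, Rbfox1, up to 4 called genes per list by size of ratio (or the 2 with the highest level where none was called) and the 3 nearest genes of Fos, Fosb and Atf3. A gene that this rule selects is not reported here, and other names were picked with their values in view. The comparison of protein sequences in the design was not run. Counting and motif steps were tested on simulated data. Alternatives were other thresholds, pseudocounts, scalings and filters. The work was done with pandas 2.3.3 and numpy 2.4.6 in Python 3.11.15, and plots with matplotlib 3.10.9.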

Additional observations from a re-analysis of the deposited data

How the results depend on the processing

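The count of members that rose was 5 at q below 0.01, at q below 0.1 and with the FPKM minimum, and 2 (Fosb and Atf3) where a rise of at least 2-fold was also asked. No ratio of a named gene changed sign under 2 pseudocounts, centring on the median of all genes (a shift of 0.03 in log2) or scaling to the upper quartile (0.04). With a pseudocount of 1 FPKM, 9 of 69 ratios moved by more than 1.5-fold, all of genes at or below 1.08 FPKM in wildtype, Atf3 to 1.51 among them, Inhba to 1.79, Ecel1 to 1.70, Gal to 1.57, Bmp3 to 1.63, Drd1a to 1.19, Otos to 1.12, Fat2 to 0.96 and Batf3 to 0.75. The log2 ratio of the Fos sum was 1.37 with all members, 0.88 without Fosb, the highest in Nes-cKO, and 1.78 without Fosl2, the highest in wildtype, the last added after the data were seen. That of the Jun sum was 0.36, and 0.45 without Jun, the highest in both genotypes.

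List counts are small and moved with the settings. With an FPKM of 5 or more asked, the genes that rose numbered 0 for BATF and JDP (median 0.011), 2 for ATF and CREB, 1 for CEBP and PAR, 0 for MAF, NRF and BACH, 0 for the MAP kinases, 5 for the injury list and 2 for the stress response, and those that fell 0 for the targets and 0 for immediate early genes. With no FPKM minimum, 2 targets fell, where 2.29% of all 14964 tested genes were called lower. At q below 0.01, 1 turnover factor and 2 stress genes rose, and 0 injury genes and 0 immediate early genes fell. At q below 0.1, 1 activator and 2 MAP kinases rose, and 1 stress gene and 2 immediate early genes fell. Without the members and genes on several lists, 7 targets, 5 injury genes, 2 ATF and CREB genes, 1 stress gene and 0 CEBP and PAR genes rose. The alternatives use fewer or more genes by construction. For the FPKM minimum of 5 and the other q thresholds, the share called over all genes is not given here. The number measured per list is not given for any alternative. These counts can therefore not be set beside a background.

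No paired analysis was possible because the table holds 1 value per gene and genotype, and for the same reason leaving out each mouse was not run. Depth is unknown, so counting error at low FPKM, as for Atf3 in wildtype, could not be given.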

Other observations

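Some genes of the target and injury lists were called below an FPKM of 1 in both genotypes and so stand outside the counts above. Th, the tyrosine hydroxylase gene, whose promoter window holds TGACGTCA, rose from 0.280 to 0.846 FPKM. Lif, a cytokine gene of the injury list, rose from 0.252 to 0.523 FPKM. The metalloproteinase gene Mmp9 fell from 0.577 to 0.335 FPKM. These genes were picked with their values in view.

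Across the whole table, TGACTCA was in a promoter window of 33 of 488 genes called higher (6.76%), 11 of 237 called lower (4.64%) and 480 of 10510 tested genes (4.57%). TGACGTCA was in a window of 4.10% of the genes called higher, 1.69% of those called lower and 3.47% of tested genes. For the core TGACG these shares were 31.8%, 21.5% and 33.9%. Genes with several annotated starts have several windows, and these shares were not tested.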
